A study of Mus musculus with 8 samples.

Results

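The bone morphogenetic protein (BMP) pathway was followed in mouse uterus through 10 genes: the ligands Bmp2, Bmp4 and Bmp7, the receptors Bmpr1a, Bmpr2 and Acvr1, the signal transducers Smad1 and Smad5, the target gene Id1 and the antagonist follistatin (Fst). They were taken by gene symbol from the 19938 genes that had a probe set with a single symbol, and all 10 were found, each with 1 probe set. The list was made with earlier results of these data known, so its counts beside shares of all probe sets are descriptive only. All 10 probe sets lay above the 40th percentile of their array on every array. The arrays held uterine RNA of C57BL/6 mice on day 3 at 22 h, counting the mating night as day 0. The pregnant group (4 arrays) came from females mated with stud males, in which blastocysts were flushed from the uterine horns and no blue dye site was seen. The pseudopregnant group (4 arrays) came from females mated with vasectomized males, so the sire and the presence of embryos differ together between the groups and cannot be told apart. Both groups are the same strain with no transgene named, whole uterine tissue was used, and the labels call each sample a biological replicate.

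BMPs are secreted dimers that bring together a type I receptor, such as Bmpr1a or Acvr1, and a type II receptor, such as Bmpr2. The active receptor phosphorylates Smad1 and Smad5, which enter the nucleus with Smad4 and turn on genes such as Id1, while follistatin and other secreted proteins bind the ligands and hold them away from the receptors. In the mouse uterus Bmp2 is known for its induction in the stroma around the attaching embryo and for its need in decidualization, the change of stromal cells into decidual cells.

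None of the 10 genes passed an adjusted p of 0.05 in the comparison of pregnant with pseudopregnant uterus (0 of 10; limma, Benjamini-Hochberg over 17491 probe sets), where 319 probe sets or 1.82% of all tested did. At an unadjusted p under 0.05, 4 of the 10 were higher in the pregnant group (Bmp2, Bmpr1a, Acvr1 and Fst), against 14.3% of all probe sets, and 0 were lower, against 9.43%. The pregnant values all lay above the pseudopregnant values in 3 of the 10 (Bmpr1a, Acvr1 and Smad5), against 9.23% of all probe sets, and all below them in 0 of the 10, against 5.39%. In 9 of the 10 the difference was above 0, against 50.6% of all probe sets, with a median of 0.076 on the log2 scale, beside a median of 0.0019 over all probe sets tested. Differences ran from -0.052 for Smad1 to 0.99 for Bmp2. Because the arrays measure whole tissue, fewer cells of a type and less RNA per cell cannot be told apart in any of these values.

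**Figure D1:**
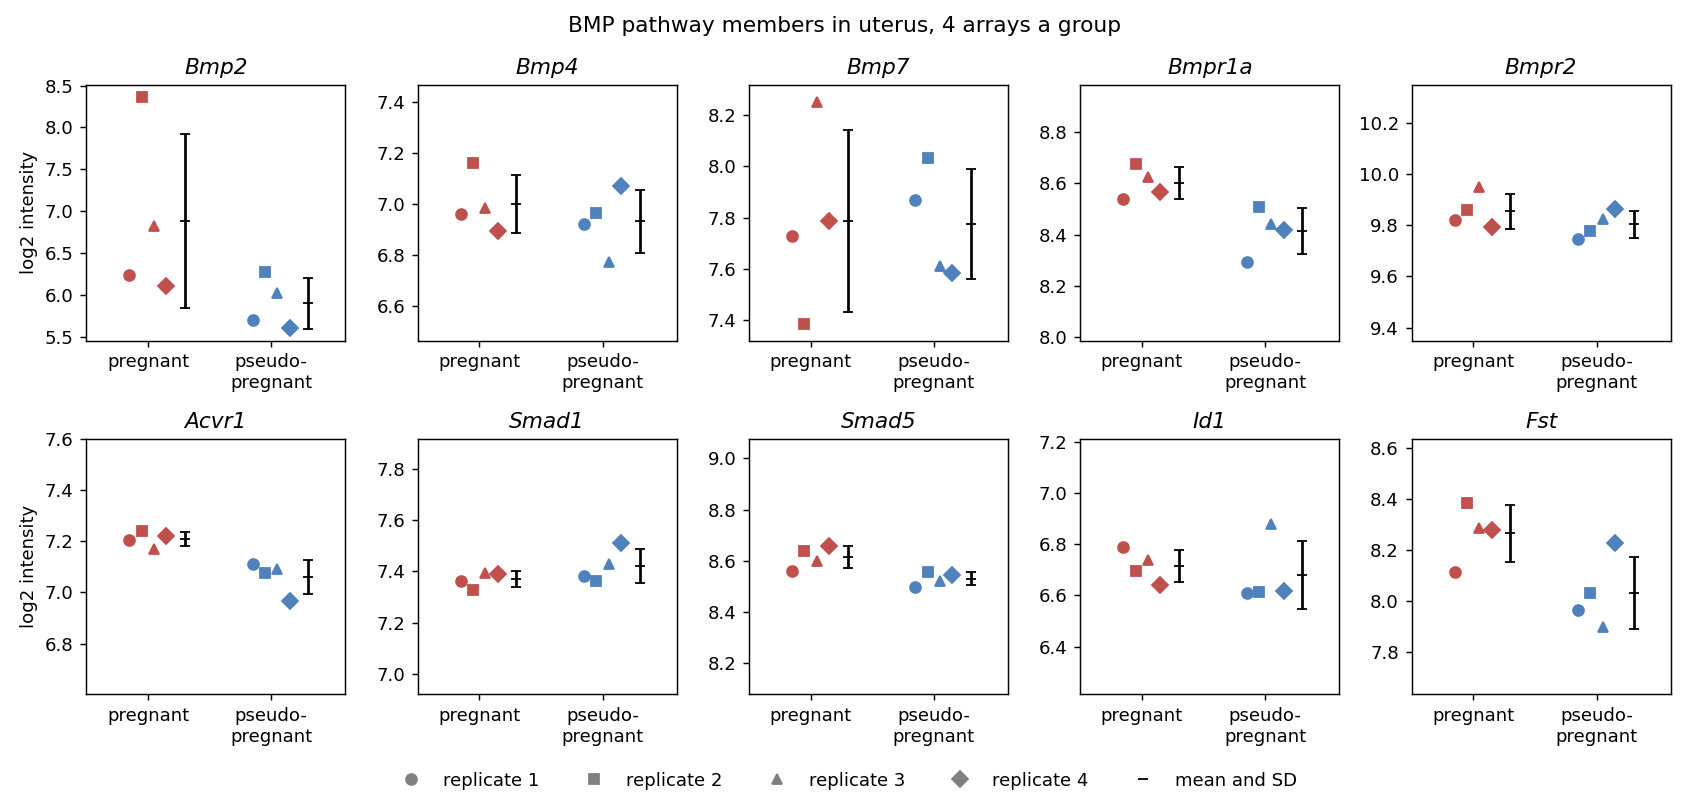
Log2 intensity of each of the 10 genes on the 8 arrays, with pregnant arrays in red and pseudopregnant arrays in blue. Symbols give the replicate number and the black bars the mean and SD of 4 arrays. Each panel has its own axis. Bmp2 reached 8.37 in pregnant replicate 2 against 5.60 to 6.27 in the pseudopregnant group, while Acvr1, Bmpr1a and Smad5 had groups that did not overlap.

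Among the ligands, Bmp2 had the largest difference of the 10 genes. Its log2 intensities in pregnant replicates 1 to 4 were 6.24, 8.37, 6.82 and 6.11, and in pseudopregnant replicates 1 to 4 they were 5.70, 6.27, 6.02 and 5.60. Pregnant replicates 2 and 3 lay above every pseudopregnant array, whereas pregnant replicates 1 and 4 lay below pseudopregnant replicate 2, so the groups overlapped. The group means were 6.88 ± 1.04 and 5.90 ± 0.31 (SD, n = 4 each), a 1.98-fold higher mean in the pregnant group. The log2 difference was 0.99 ± 0.42 (SE) with a 95% interval of 0.048 to 1.93, and it did not pass (adjusted p = 0.19). Without pregnant replicate 2 the difference was 0.49 ± 0.19 (SE, adjusted p = 0.21). Its pooled SD within groups, 0.76, was exceeded by 0.114% of the probe sets tested, whose median SD was 0.10.

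Bmp4, a ligand close in sequence to Bmp2, had values of 6.96, 7.16, 6.98 and 6.89 in pregnant replicates 1 to 4 and of 6.92, 6.97, 6.77 and 7.07 in pseudopregnant replicates 1 to 4. The groups overlapped, although the highest value was pregnant and the lowest pseudopregnant. The difference was 0.068 ± 0.078 (SE, adjusted p = 0.62), with a 95% interval of -0.11 to 0.24. The Bmp2 difference of 0.99 lies outside this interval, but the Bmp2 interval of 0.048 to 1.93 overlaps it. Whether the 2 ligands differ was not tested. Bmp7, a ligand of another subgroup of the family, had values of 7.73, 7.39, 8.25 and 7.79 in the pregnant and of 7.87, 8.03, 7.61 and 7.58 in the pseudopregnant replicates. Its lowest and its highest value both stood in the pregnant group, in replicates 2 and 3. The difference of 0.013 ± 0.17 (SE, adjusted p = 0.97) turned to -0.14 without pregnant replicate 3 and to 0.15 without pregnant replicate 2, and it was -0.018 with a repeated quantile normalization, so Bmp7 has no direction here. Bmp7 had the second largest spread of the 10 genes, with a pooled SD within groups of 0.29, which 2.72% of the probe sets exceeded. Pregnant replicate 2 was thus the array with the highest Bmp2 and Bmp4 and the lowest Bmp7.

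Both type I receptors were higher on every pregnant array than on any pseudopregnant array, by small amounts. Bmpr1a, which binds Bmp2 and Bmp4, had values of 8.54, 8.68, 8.63 and 8.57 in pregnant replicates 1 to 4 and of 8.29, 8.51, 8.44 and 8.42 in pseudopregnant replicates 1 to 4. The lowest pregnant and the highest pseudopregnant value lay close together, at 8.54 and 8.51. The difference was 0.19 ± 0.061 (SE), a 1.14-fold higher mean, with a 95% interval of 0.053 to 0.32 and an adjusted p of 0.11. Acvr1, which can transmit signals of BMPs, had values of 7.20, 7.24, 7.17 and 7.22 against 7.11, 7.07, 7.09 and 6.96. The pregnant arrays lay within a narrow range and the pseudopregnant group had 1 lower array, replicate 4. The difference was 0.15 ± 0.051 (SE), a 1.11-fold higher mean, with a 95% interval of 0.033 to 0.26 and an adjusted p of 0.13.

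The type II receptor Bmpr2 had values of 9.82, 9.86, 9.95 and 9.79 in pregnant replicates 1 to 4 and of 9.75, 9.78, 9.83 and 9.86 in pseudopregnant replicates 1 to 4, and the groups overlapped. Its difference was 0.052 ± 0.054 (SE, adjusted p = 0.585), with a 95% interval of -0.069 to 0.17. The 2 type I receptors kept differences of 0.15 to 0.22 (Bmpr1a) and 0.12 to 0.16 (Acvr1) when single arrays were left out, and neither passed in any of these 8 fits. Whether the receptors differ from one another in their response was not tested.

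The promoters of the 3 receptors are shown because the 2 type I receptors were the members whose groups stood apart at an unadjusted p under 0.05, and Bmpr2 is the receptor whose groups overlapped. RefSeq promoters (GRCm38.p6) were found for 6 of the 10 genes: Bmp4, Bmpr1a, Bmpr2, Acvr1, Smad1 and Smad5. The 250 bases before the start site are given 5′ to 3′ on the gene's strand, at chr14:34502547-34502796 (minus strand) for Bmpr1a, chr2:58566829-58567078 (minus strand) for Acvr1 and chr1:59764029-59764278 (plus strand) for Bmpr2. Capitals mark GGCGCC, a GC-rich element bound by SMAD proteins, which reads the same on both strands.
Bmpr1a: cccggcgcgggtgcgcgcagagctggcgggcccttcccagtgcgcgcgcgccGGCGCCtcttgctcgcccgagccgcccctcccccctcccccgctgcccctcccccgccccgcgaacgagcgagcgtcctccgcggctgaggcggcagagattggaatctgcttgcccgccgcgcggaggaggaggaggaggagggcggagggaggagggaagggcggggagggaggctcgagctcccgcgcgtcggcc
Acvr1: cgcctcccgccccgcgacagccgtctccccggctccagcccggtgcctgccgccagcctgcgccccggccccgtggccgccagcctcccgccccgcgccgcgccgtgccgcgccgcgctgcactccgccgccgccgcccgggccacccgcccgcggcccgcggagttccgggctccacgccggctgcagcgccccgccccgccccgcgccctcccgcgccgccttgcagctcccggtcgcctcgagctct
Bmpr2: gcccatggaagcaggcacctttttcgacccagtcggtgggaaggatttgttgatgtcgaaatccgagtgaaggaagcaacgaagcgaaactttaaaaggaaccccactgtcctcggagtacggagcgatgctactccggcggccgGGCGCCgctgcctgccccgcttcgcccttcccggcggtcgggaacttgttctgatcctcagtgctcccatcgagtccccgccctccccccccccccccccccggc
GGCGCC stood once in the Bmpr1a window, 198 bases before the start site, and once in the Bmpr2 window, 105 bases before it, and these letters were not in the Acvr1 window. Over all 6 genes with a promoter it was found in 3, the third being Smad5, where 1 of its windows held it 19 bases before the start site. Of 32817 promoters in the table, 9.59% held GGCGCC in the same 250 bases. That is a share of promoters, whereas the count over the 6 genes is of genes, and Smad5 had more than 1 window. The G and C content of all promoters was not computed, so no excess of GGCGCC can be read from these numbers. The palindrome GTCTAGAC, another element bound by SMAD proteins, was in 0 of the 8 windows of the 6 genes and in 0.168% of all promoters. The windows were rich in G and C, with 78.8% for Bmpr1a, 85.6% for Acvr1 and 64.0% for Bmpr2. A match in these windows is a description of letters and not of a bound site.

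The signal transducers differed little. Smad5 had values of 8.56, 8.64, 8.60 and 8.66 in pregnant replicates 1 to 4 and of 8.50, 8.55, 8.52 and 8.54 in pseudopregnant replicates 1 to 4. The groups did not overlap, but the lowest pregnant and the highest pseudopregnant value were 8.56 and 8.55. Its difference was 0.084 ± 0.047 (SE, adjusted p = 0.31), with a 95% interval of -0.022 to 0.19, and its pooled SD within groups of 0.035 was lower than that of 98.2% of the probe sets. Smad1 had values of 7.36, 7.33, 7.40 and 7.39 against 7.38, 7.36, 7.43 and 7.51, with overlap and a single higher array, pseudopregnant replicate 4. With all arrays it was the only member with a difference below 0, at -0.052 ± 0.052 (SE, adjusted p = 0.565), with a 95% interval of -0.17 to 0.063.

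Id1, an inhibitor of basic helix-loop-helix transcription factors and a direct target of Smad1 and Smad5, had values of 6.79, 6.70, 6.74 and 6.64 in pregnant replicates 1 to 4. In pseudopregnant replicates 1 to 4 its values were 6.61, 6.61, 6.88 and 6.62. The highest value of all 8 arrays was that of pseudopregnant replicate 3, and the other 3 pseudopregnant arrays lay below all pregnant arrays. With all arrays the difference was 0.036 ± 0.072 (SE, adjusted p = 0.78), with a 95% interval of -0.12 to 0.20. Without pseudopregnant replicate 3 the difference was 0.10 ± 0.057 (SE, adjusted p = 0.33).

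Fst encodes a secreted protein that binds activins and, less tightly, BMPs. Its values were 8.11, 8.38, 8.29 and 8.28 in pregnant replicates 1 to 4 and 7.96, 8.03, 7.90 and 8.23 in pseudopregnant replicates 1 to 4. Pregnant replicates 2, 3 and 4 lay above every pseudopregnant array, and pregnant replicate 1 lay below pseudopregnant replicate 4. The group means were 8.27 ± 0.11 and 8.03 ± 0.14 (SD, n = 4 each), a 1.18-fold higher mean in the pregnant group. The difference was 0.24 ± 0.082 (SE), with a 95% interval of 0.052 to 0.42 and an adjusted p of 0.13, and it was 0.19 to 0.30 with single arrays left out (adjusted p 0.076 to 0.27).

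**Figure D2:**
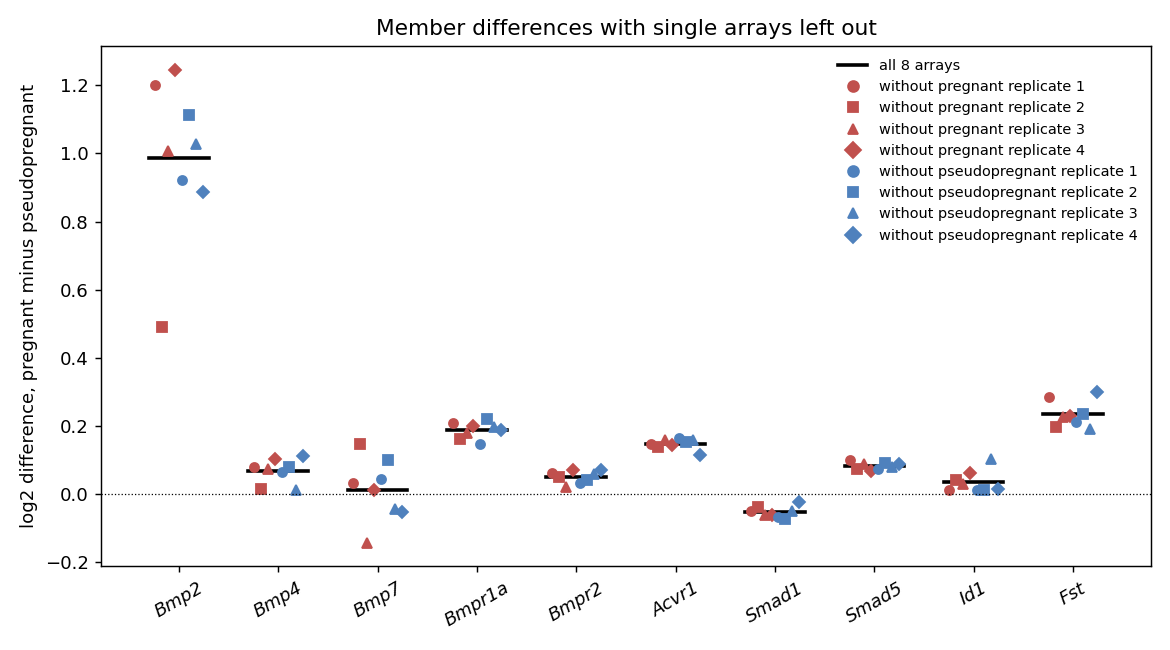
Log2 difference of each gene, pregnant minus pseudopregnant, with all 8 arrays (black bar) and with each array left out in turn (red symbols for pregnant, blue for pseudopregnant arrays). Bmp2 drops to 0.49 without pregnant replicate 2, Bmp7 changes sign, and the other 8 genes keep the sign of the full comparison.

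Bmp2 and Fst had the largest differences, and the genes whose profile over the 8 arrays was most like theirs were found. Likeness was the root mean square difference between log2 values, each gene first centred on its mean over the 8 arrays, so a small number means a close profile. For Bmp2 these were Tac2, a tachykinin precursor (0.27), Rrm2, a subunit of ribonucleotide reductase (0.29), Agr2, a protein disulfide isomerase of secretory epithelium (0.34), the chemokine Cxcl14 (0.37) and the calcium-binding protein Efhd1 (0.37), beside an SD of 0.88 for Bmp2 itself. All 5 were highest in pregnant replicate 2, with values of 8.90 for Tac2, 8.64 for Rrm2, 8.59 for Agr2, 8.44 for Cxcl14 and 8.08 for Efhd1. None of the 5 passed with all arrays: the differences were 0.80 for Tac2, 0.93 for Rrm2, 0.44 for Agr2, 0.70 for Cxcl14 and 0.60 for Efhd1, with adjusted p between 0.094 and 0.55. Without pregnant replicate 2, Rrm2 differed by 0.58 and passed (adjusted p = 0.016), while Agr2 differed by -0.086.

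For Fst the closest profiles were those of Arpc1b, a subunit of the actin-nucleating complex (0.032), Sh3bp5 (0.040), Nsfl1c, a cofactor of a membrane-remodelling ATPase (0.041), Gm16287 (0.044) and Tmem185a (0.046), beside an SD of 0.17 for Fst. Their differences lay between 0.19 and 0.26, with adjusted p from 0.066 to 0.20. These genes were chosen for likeness of their values among 14327 probe sets with 1 symbol, which includes the group difference.

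**Figure D3:**
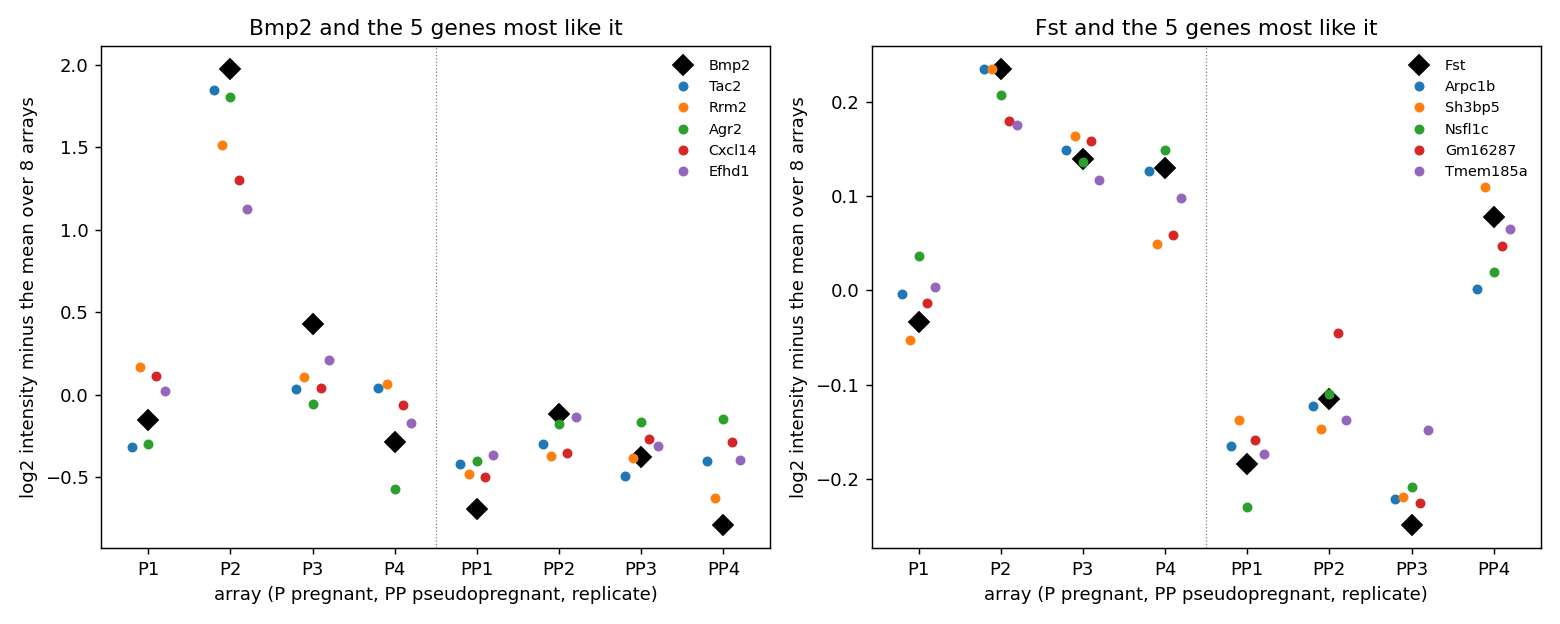
Log2 intensity minus the gene's mean over 8 arrays, for Bmp2 (left) and Fst (right) in black and the 5 genes most like each in colour; P marks pregnant and PP pseudopregnant arrays with their replicate number. The Bmp2 profile is set by the high value in pregnant replicate 2, whereas Fst is high in 3 pregnant arrays and in pseudopregnant replicate 4.

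Other genes of the pathway were taken from lists of 79 genes outside the 10, of which 77 had a probe set of their own and 59 were bright enough to be tested. None of the 59 passed (0 of 59, against 1.82% of all probe sets), and at an unadjusted p under 0.05 limma had 7 higher and 8 lower, against 14.3% and 9.43% of all probe sets. Their median difference was -0.010. The groups did not overlap in 9 of the 59, against 9.23% of all probe sets with the pregnant group higher and 5.39% with it lower. Most genes named below were picked for the smallest p in their list, which favours groups that do not overlap. The count of passing genes stayed 0 in 12 of the 18 alternatives and was 1 to 3 in the other 6. It was 1 with a repeated quantile normalization or cyclic loess (Rgma) and 2 with array weights (Bmper and Chrdl2). With an intensity trend in the variance it was 3 (Bmper, Chrdl2 and Gata2). It was also 1 without pregnant replicate 2 (Alpl) or without pregnant replicate 3 (Bmper).

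Of the 20 other extracellular antagonists and modulators, 16 were tested, 8 with a difference above 0 and 8 below. Bmper, a secreted protein that binds BMPs and can raise or lower their signal, had values of 6.09, 6.44, 5.82 and 6.05 in pregnant replicates 1 to 4 and of 5.53, 5.57, 5.56 and 5.75 in pseudopregnant replicates 1 to 4. All pregnant arrays lay above all pseudopregnant arrays. Its difference of 0.50 ± 0.11 (SE), a 1.41-fold higher mean, just missed the threshold (adjusted p = 0.056). It was 0.39 (adjusted p = 0.066) without pregnant replicate 2 and 0.59 (adjusted p = 0.038) without pregnant replicate 3. Chrdl2, a chordin-like BMP antagonist, had values of 6.79, 7.14, 7.03 and 7.03 in pregnant replicates 1 to 4 and of 7.35, 7.42, 7.43 and 7.16 in pseudopregnant replicates 1 to 4. It lay lower on all pregnant arrays, with a difference of -0.34 ± 0.087 (SE, adjusted p = 0.064). Fstl1, a follistatin-like secreted glycoprotein, differed by 0.17 ± 0.059 (SE, adjusted p = 0.13), also with no overlap. Noggin (Nog) and gremlin (Grem1), the classical BMP antagonists, differed by -0.10 and -0.010 (adjusted p 0.32 and 0.97). Grem1 lay below the 40th percentile of its array on 2 of 8 arrays. These 2 genes were named after their values were seen.

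Of the 13 other BMP and GDF ligands only 5 were bright enough to be tested (Bmp3, Bmp6, Bmp8a, Gdf7 and Gdf10), and 8, among them Bmp5, Bmp10 and Gdf5, lay below the intensity filter. Bmp3, a family member that opposes the other BMPs, differed by -0.22 ± 0.075 (SE, adjusted p = 0.13), but it lay below the 40th percentile on 2 of 8 arrays, so its size is not exact. Gdf10 differed by 0.24 ± 0.12 (SE, adjusted p = 0.27) and Bmp6 by 0.14 ± 0.080 (SE, adjusted p = 0.31), and both differences were 0.10 when pregnant replicate 2 was left out.

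Of the 8 other receptors and co-receptors 6 were tested, and none passed (adjusted p 0.070 to 0.70). In 5 of the 6 the difference was below 0, where 50.6% of all probe sets were above 0. The 3 receptors above had differences above 0 but did not pass either, and a contrast between the sets was not tested. The repulsive guidance molecules are co-receptors that bind BMPs at the membrane, and Rgma had values of 6.98, 7.03, 7.06 and 7.12 in pregnant replicates 1 to 4 and of 7.23, 7.36, 7.20 and 7.24 in pseudopregnant replicates 1 to 4. All its pregnant values lay below all its pseudopregnant values, with a difference of -0.21 ± 0.056 (SE, adjusted p = 0.070). Rgmb differed by -0.18 ± 0.087 (SE, adjusted p = 0.25). Endoglin (Eng), a co-receptor of endothelial cells, differed by -0.18 ± 0.057 (SE, adjusted p = 0.11) with no overlap. The summed intensity of 8 endothelial markers moved the same way, with log2 sums of 11.43 to 11.56 in the pregnant and 11.59 to 11.71 in the pseudopregnant group and 8 of 8 markers below 0. Its part in the endoglin value was not tested.

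Of 14 further SMADs and regulators 13 were tested. Ppm1a, a phosphatase that acts on SMADs, differed by 0.16 ± 0.052 (SE, adjusted p = 0.11), Ctdsp2, a phosphatase that removes linker phosphates, by -0.13 ± 0.050 (SE, adjusted p = 0.15) and the SMAD corepressor Skil by 0.22 ± 0.097 (SE, adjusted p = 0.21). The feedback inhibitors Smad6 and Smad7, themselves BMP targets and named after their values were seen, differed by 0.16 ± 0.13 and 0.11 ± 0.070 (SE, adjusted p 0.50 and 0.36).

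Of the 17 other target genes 14 were tested, 5 with differences above 0 and 9 below. The homeobox gene Msx1 had values of 6.96, 6.18, 7.12 and 6.80 in pregnant replicates 1 to 4 and of 7.51, 7.60, 7.33 and 7.07 in pseudopregnant replicates 1 to 4, and was lowest in pregnant replicate 2. Its difference of -0.61 ± 0.19 (SE) did not pass (adjusted p = 0.0998), and it was -0.42 without pregnant replicate 2. Gata2, a transcription factor of the progesterone response, lay lower on all pregnant arrays, with 8.38 ± 0.072 against 8.70 ± 0.15 (SD, n = 4 each) and an adjusted p of 0.062. Dlx5, a homeobox gene of uterine epithelium, differed by -0.25 ± 0.12 (SE, adjusted p = 0.24). The relatives of Id1, named after their values were seen, differed by -0.038 for Id2, -0.011 for Id3 and -0.19 for Id4 (adjusted p 0.76, 0.95 and 0.265).

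Of 11 genes tied to BMP signalling in decidual cells 9 were tested, and none passed with all arrays. The difference was above 0 in 8 of the 9, against 50.6% of all probe sets, with a median of 0.14. It was small in Fkbp4, Pgr and Cebpb (0.052, 0.031 and 0.018), and Wnt4, Hand2 and Alpl were highest in pregnant replicate 2. Alpl, the alkaline phosphatase used as a stain for decidual cells, had values of 6.12, 7.30, 6.05 and 6.23 in pregnant replicates 1 to 4 and of 5.82, 5.67, 5.75 and 5.68 in pseudopregnant replicates 1 to 4. All pregnant arrays lay above all pseudopregnant arrays, and pregnant replicate 2 stood far above the others. Its difference was 0.70 ± 0.23 (SE, adjusted p = 0.12), and without pregnant replicate 2 it was 0.40 ± 0.065 (SE) and passed (adjusted p = 0.038). Wnt4, a stromal Wnt ligand that acts downstream of Bmp2 in decidual cells, was 7.01 in pregnant replicate 2 against 6.60 to 6.64 on the other pregnant and 6.35 to 6.62 on the pseudopregnant arrays. Its difference was 0.22 ± 0.098 (SE, adjusted p = 0.21), and 0.13 without that array. Egfr differed by 0.14 ± 0.061 (SE, adjusted p = 0.20).

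**Figure D4:**
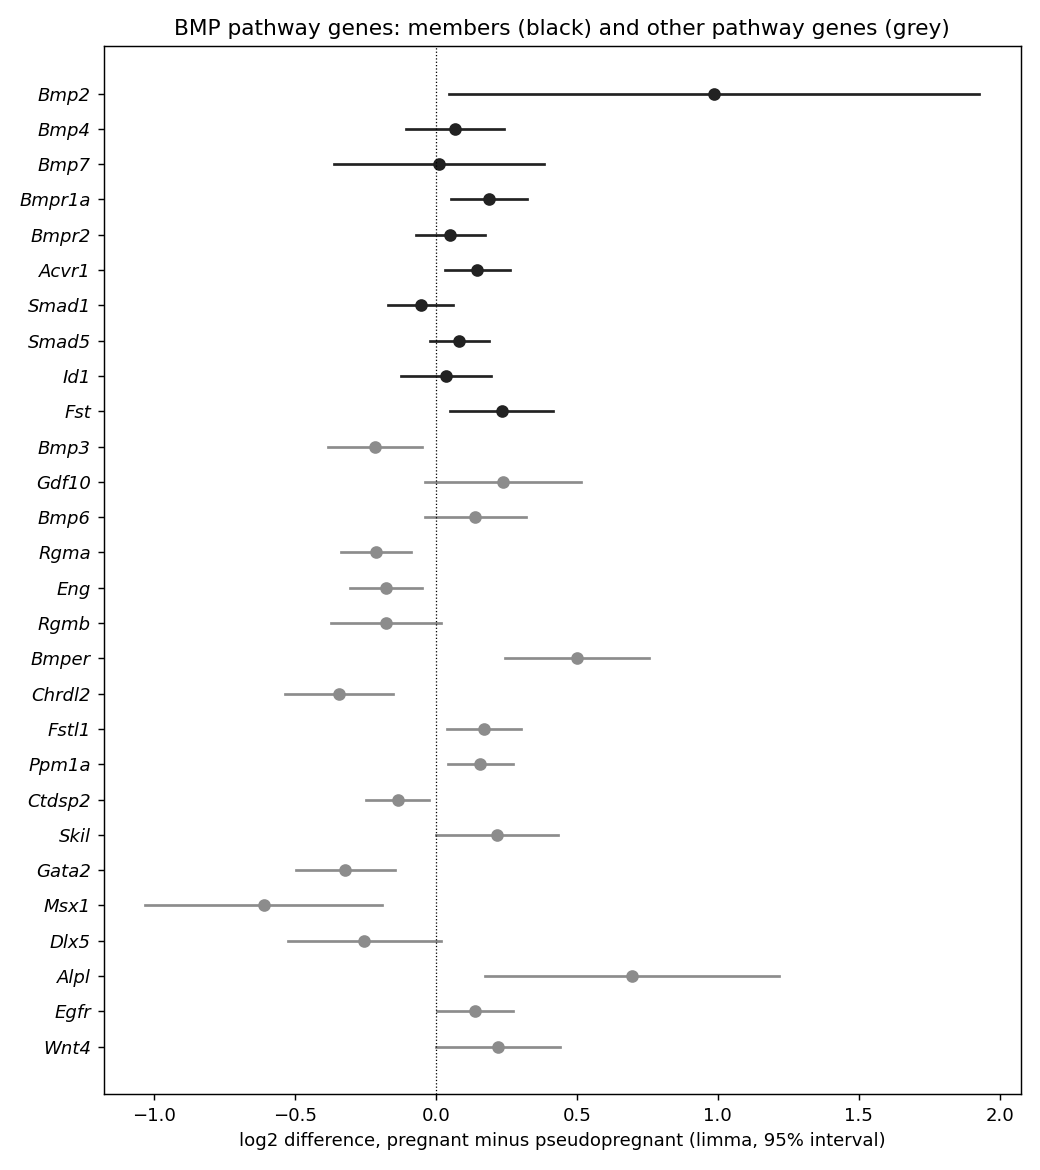
Log2 difference, pregnant minus pseudopregnant, with its 95% interval from limma (not adjusted for the number of probe sets) for the 10 members in black and 18 other pathway genes in grey, which were the 3 with the smallest p in each of 6 lists. The widest interval is that of Bmp2, and the intervals of Bmp2, Bmpr1a, Acvr1 and Fst among the members lie above 0.

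Over the whole series, correlations between arrays of a group were 0.992 to 0.996, and of the 319 probe sets that changed 247 were higher and 72 lower in the pregnant group (77.4% higher, against 67.1% with a repeated quantile normalization and 67.5% with cyclic loess). Leaving out pregnant replicates 1, 2, 3 and 4 gave counts of 84, 101, 207 and 86, and leaving out pseudopregnant replicates 1, 2, 3 and 4 gave 40, 70, 40 and 235. Pregnant replicate 2 held the highest of the 8 values for 19.2% of the probe sets tested, and for 5 of the 10 members (Bmp2, Bmp4, Bmpr1a, Acvr1 and Fst). The 7 uterine identity genes, among them Hoxa10, Hoxa11 and Pgr, were all bright enough to be tested, with log2 sums of 11.31 to 11.47 in the pregnant and 11.39 to 11.43 in the pseudopregnant group. Beside the marker counts that follow, 1.82% of all probe sets tested passed, in either direction. Of 8 macrophage markers 6 rose, with log2 sums of 10.36 to 10.62 against 10.04 to 10.11. Of 7 natural killer cell markers tested (Klrb1c lay below the filter) 4 rose, with sums of 9.32 to 10.16 against 8.51 to 9.12. Of 9 genes of cycling cells 1 rose, with sums of 11.13 to 11.61 against 10.78 to 11.05. These counts moved with the filter and with single arrays. Without the intensity filter 1 macrophage marker (C1qb), 0 natural killer and 0 cycling cell genes passed. Leaving out pregnant replicates 1, 2, 3 and 4 gave 3, 4, 4 and 2 macrophage, 2, 2, 1 and 0 natural killer, and 0, 0, 4 and 0 cycling cell genes. Leaving out pseudopregnant replicates 1, 2, 3 and 4 gave 1, 1, 1 and 3 macrophage, 0, 0, 0 and 5 natural killer, and 0, 0, 0 and 1 cycling cell genes. Sums of 6 ovary and oviduct markers, 2 of them bright enough to be tested, were 7.82 to 7.88 against 7.94 to 8.54. Neither of these 2 passed. Inha overlapped between the groups (6.16 to 6.40 against 6.22 to 7.62, adjusted p = 0.097). Foxl2 did not overlap (5.70 to 5.89 against 6.02 to 6.11, adjusted p = 0.057). Stromal fibroblast sums were 13.83 to 13.91 against 13.77 to 13.85, and smooth muscle sums 13.33 to 13.56 against 13.23 to 13.50. Epithelial sums were 11.12 to 11.18 in pregnant replicates 1, 3 and 4, 10.81 in pregnant replicate 2 and 11.12 to 11.49 in the pseudopregnant group. Of the 8 blastocyst markers 5, among them Pou5f1, Nanog and Cdx2, lay below the filter. Pregnant replicate 2, with the highest Bmp2, had the lowest epithelial, endothelial and blastocyst sums of the 8 arrays. The blastocyst list shares Krt8 with the epithelial list and Eomes with the natural killer list. Krt8 was also lowest on that array, at 8.89 beside a blastocyst sum of 9.48, so the blastocyst sum is not a separate measure of embryo content. Pregnant replicate 2 also had the highest natural killer, macrophage, cycling cell and smooth muscle sums. The part of cell makeup in the values of Bmp2, Bmpr1a, Acvr1 and Fst was not tested.

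**Figure D5:**
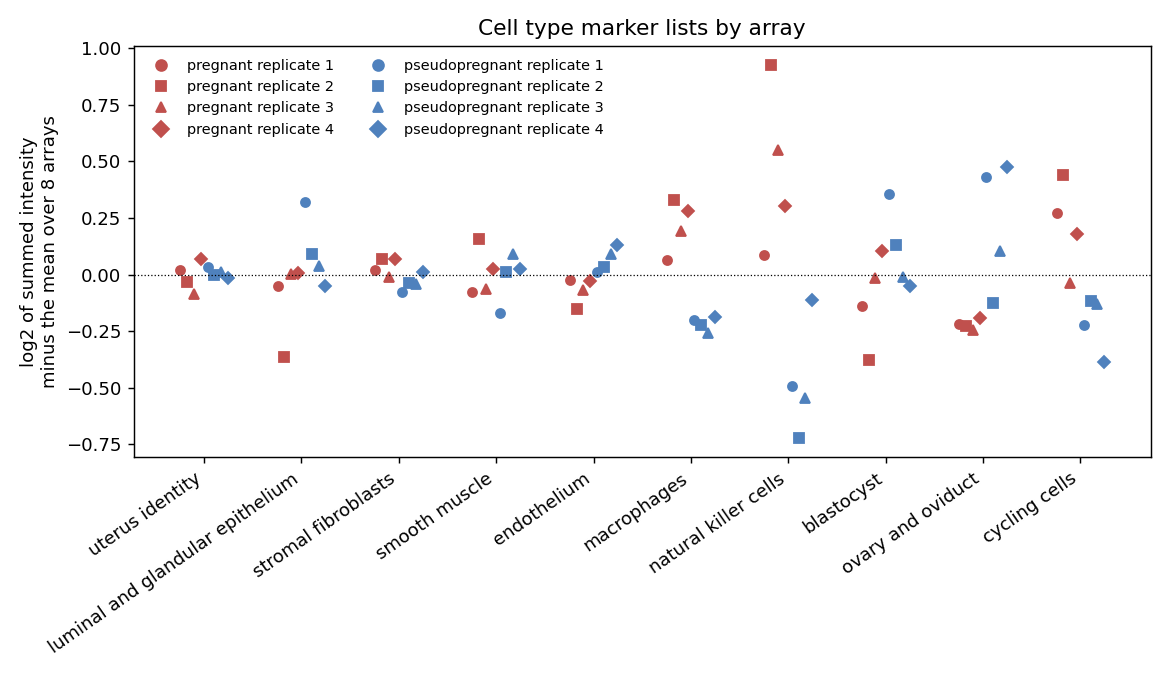
Log2 of the summed intensity of each marker list, minus its mean over the 8 arrays, for pregnant (red) and pseudopregnant (blue) arrays with symbols for the replicate. The macrophage, natural killer, endothelial, cycling, and ovary and oviduct lists have groups that do not overlap, and the epithelial list is lowest in pregnant replicate 2.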

How the data were processed

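Total RNA of 8 uteri was labelled with biotin and hybridised to gene expression arrays. The authors deposited linear intensities, 1 for each probe set, which they made with RMA according to the labels (per the submitters' processing notes). RMA corrects background, makes array quantiles equal and summarises the probes of a set. Software, version and annotation build: not given in the sources used here. This compresses changes near background.

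Here log2 was taken. Of 35556 probe sets, 6617 with identifiers below the first entry of the platform gene table were taken to be array controls from their place and not used. Of the other 28939, 17491 were kept, those brighter than the 40th percentile of the array on at least 4 of 8 arrays. The group comparison used limma 3.58.1 (lmFit, eBayes; R 4.3.3) with 1 group term, two-sided, and Benjamini-Hochberg adjustment over all kept probe sets; the fit was tested on simulated data. A gene changed ("rose") where its adjusted p was under 0.05. A gene was represented by its probe set with the highest mean over the 8 arrays. A level cannot be set against that of another gene. Marker lists were summed on the linear scale over their probe sets on the array.

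The 10 members and the lists were chosen with earlier results of these data known. Named were all members, the 3 genes with the smallest p in each other pathway list and any past the threshold, and the 5 genes most like each of the 2 members with the largest differences. The alternatives were 3 other normalizations, 2 other filters, a pseudocount of 16, the replicate number as a block, array weights, a variance trend, averaged probe sets, and each array left out in turn. No batch is given in the labels, and 4 arrays a group limit the precision. Plots were made in Python 3.11.15 with matplotlib 3.10.9.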

Additional observations from a re-analysis of the deposited data

Results flagged for a closer look

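In 76 groups of 4 arrays (38 genes, 2 groups each) 9 had a value far from the other 3 by Dixon's criterion, which chance gives in about 1 of 20 groups. Among the members this was Id1 in pseudopregnant replicate 3, at 6.88 against 6.61 to 6.62. Pregnant replicate 2 stood apart in 6 genes: Ppm1a (8.60, against 8.51 to 8.52 on the other pregnant arrays), Alpl (7.30, against 6.05 to 6.23), Wnt4 (7.01, against 6.60 to 6.64), Tac2 (8.90, against 6.74 to 7.09), Rrm2 (8.64, against 7.19 to 7.29) and Cxcl14 (8.44, against 7.07 to 7.24). The last 3 were named for their likeness to Bmp2, which is itself highest on that array, so their place here is not independent of it. Bmp2 on that array did not meet the criterion. The other values far from their group were those of Agr2 in pseudopregnant replicate 1 (6.38, against 6.60 to 6.64) and Tmem185a in pseudopregnant replicate 4 (7.66, against 7.42 to 7.45).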

How the results depend on the processing

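None of the 10 members passed in any of the 18 alternatives, with adjusted p between 0.076 (Fst, without pseudopregnant replicate 4) and 0.98 (Bmp7). Of the members, 9 kept their sign throughout; Bmp7 (0.013) turned to -0.018 with a repeated quantile normalization and -0.021 with cyclic loess, and ranged from -0.14 to 0.15 without single arrays. Agr2 ranged from -0.086 to 0.71 without single arrays. Bmp2 had no value with the stricter filter, nor did Bmp3, Bmp6, Bmper, Skil, Alpl and Gm16287; its difference was 0.71 with array weights and 0.49 to 1.25 without single arrays. The count of other pathway genes past the threshold (0) became 1 with a repeated quantile normalization and with cyclic loess, 2 with array weights, 3 with the variance trend, and 0 to 1 without single arrays. The 319 probe sets became 54 without the intensity filter, 174 with the replicate block, 710 with the variance trend and 40 to 235 without single arrays. The marker counts were recomputed under the same settings, a choice made after seeing the data: 6 macrophage, 4 natural killer and 1 cycling cell genes became 1, 0 and 0 without the intensity filter and 3, 1 and 0 with the replicate block. With the replicate block 0 members passed, and Bmp2 had an adjusted p of 0.086. Deviations of same-numbered arrays correlated by -0.10 to 0.24 and 2 of 4 pregnant arrays matched their own number best, so the numbers were not taken as pairs. With 4 arrays a group, the 95% intervals of the members reached from -0.36 (Bmp7) to 1.93 (Bmp2), and small differences within them were not detectable.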

Other observations

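Id1, Id2 and Id3, of the same family, had their highest value on the same array. In pseudopregnant replicate 3 Id1 was 6.88, Id2 9.41 and Id3 7.20, and on the other 7 arrays the highest values were 6.79 for Id1, 9.40 for Id2 and 7.01 for Id3. Id4 was 7.14 there and highest in pseudopregnant replicate 2, at 7.18. In pseudopregnant replicate 3 the ligand Bmp4 (6.77) and the antagonist Fst (7.90) both had their lowest value of all 8 arrays. Bmp2 (6.02) and Bmp7 (7.61) were not the highest there. Smad6 (6.04) was the highest of its group but lay below pregnant replicate 2 (6.57). The Id genes were looked at together after the value of Id1 had been seen.

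The 14 other BMP target genes tested had no common direction in pregnant replicate 2, where Bmp2 was highest. On that array 4 had their highest value of all 8 arrays (Smad6, Atoh8, Hey1 and Gata3), 4 had their lowest (Msx1, Dlx5, Gata2 and Id4) and the others neither. Hey1 was close to a tie, at 6.839 against 6.837 in pseudopregnant replicate 4. Over all probe sets tested 19.2% were highest in pregnant replicate 2, and the share lowest on that array was not computed. Smad6 was 6.57 there, against 5.81 to 6.04 on the other arrays, and Msx1 was 6.18. Id1 on that array (6.70) lay among the other pregnant values. These genes were tallied after their values were seen.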
